A study of Mus musculus with 9 samples.

Results

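Mitochondrial ribosomal protein genes were followed through β-catenin-driven transformation of mouse thymocytes. The set holds every gene on the array whose symbol starts with Mrpl or Mrps and a number. Each gene is read from the brightest of the probe sets that name it alone. This gave 76 genes of the 18193 that have such a probe set, and all 76 were bright enough to be among the 11588 genes tested. Expression was measured on 9 arrays, each from 1 C57Bl/6 mouse. The 4 tumour arrays held unsorted thymic tumours (at least 95% CD4+CD8+ double-positive cells) of R26NC/NC CD4Cre+ mice aged 28, 26, 23 and 21 weeks. The 3 pre-transformed arrays held sorted double-positive thymocytes (purity above 98%) of R26NC/NC CD4Cre+ mice aged 6 weeks, and the 2 control arrays held the same sorted cells of R26NC/NC CD4Cre- mice aged 6 weeks. The R26 allele was present in all 3 groups, in the controls without Cre. Cre is driven by Cd4 sequences, which are active from about the double-positive stage on, so the activated β-catenin is made in developing T cells. Controls carried no Cre, so effects of Cre and of β-catenin cannot be told apart. Tumour RNA was labelled by the standard Affymetrix protocol from 2.5 µg, and RNA of both sorted groups by an amplification kit from 0.1 µg. Labelling, sorting and age all go with the tumour group and cannot be told apart from transformation.

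The mitochondrial ribosome translates the few messenger RNAs encoded in mitochondrial DNA, all of them for subunits of the respiratory chain and of ATP synthase. Its ribosomal RNAs come from mitochondrial DNA, but its proteins are encoded in the nucleus, made in the cytosol and imported. Its large subunit joins amino acids and its small subunit reads the message. Some of its proteins descend from the bacterial ribosome (names such as uL11m or bS18m), and others are found only in mitochondria (names such as mS22).

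Signals are MAS5 values, a linear scale on which each array was scaled to a trimmed mean of 100. The median probe set of an array had a signal of 9.9 to 15.2, and the group means of the members lay between 99.7 and 1810 in tumours, between 65.6 and 1392 in pre-transformed thymocytes and between 60.2 and 1448 in controls. The member genes were thus read well above the middle of each array. The number of arrays, 4, 3 and 2, limits the precision. In these arrays of whole RNA, more cells that express a gene and more RNA per cell cannot be told apart.

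Most mitochondrial ribosomal protein genes had higher signals in tumours than in pre-transformed thymocytes of the same genotype. Of the 76 genes, 46 rose (60.5%), 3 fell and 27 did not pass the test, which was a limma fit with a Benjamini-Hochberg adjusted p under 0.05 over all genes tested. Across all 11588 genes, 23.8% were called higher and 31.1% lower. The median log2 change of the members was 0.61, a 1.53-fold increase, beside −0.13 over all genes tested, and the members ranged from −0.58 to 1.93. In 65 members the change was positive (45.8% of all genes), and 15 of those called rose by 2-fold or more (15.7% of all genes). The tumour and pre-transformed arrays did not overlap, with tumours higher, in 47 members (24.8% of all genes), and with tumours lower in 3 members (32.2% of all genes). When each array was instead centred on its median log2 signal, all changes dropped by the same amount, and the median of all genes moved to −0.38. Under this centring 20 members were called higher (16% of all genes) and 5 lower (36.9% of all genes). The members' median then stood at 0.35. Its distance of 0.74 above the median of all genes cannot change under such a shift, so it is no check on the scaling. The median of all genes also depends on the filter on dim probe sets. With the deposited scaling but without this filter, the median of all 18193 genes was 0.28, beside 0.61 over the members. Then 43 members were called higher (18.7% of all genes) and 3 lower (18.9% of all genes).

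**Figure D1:**
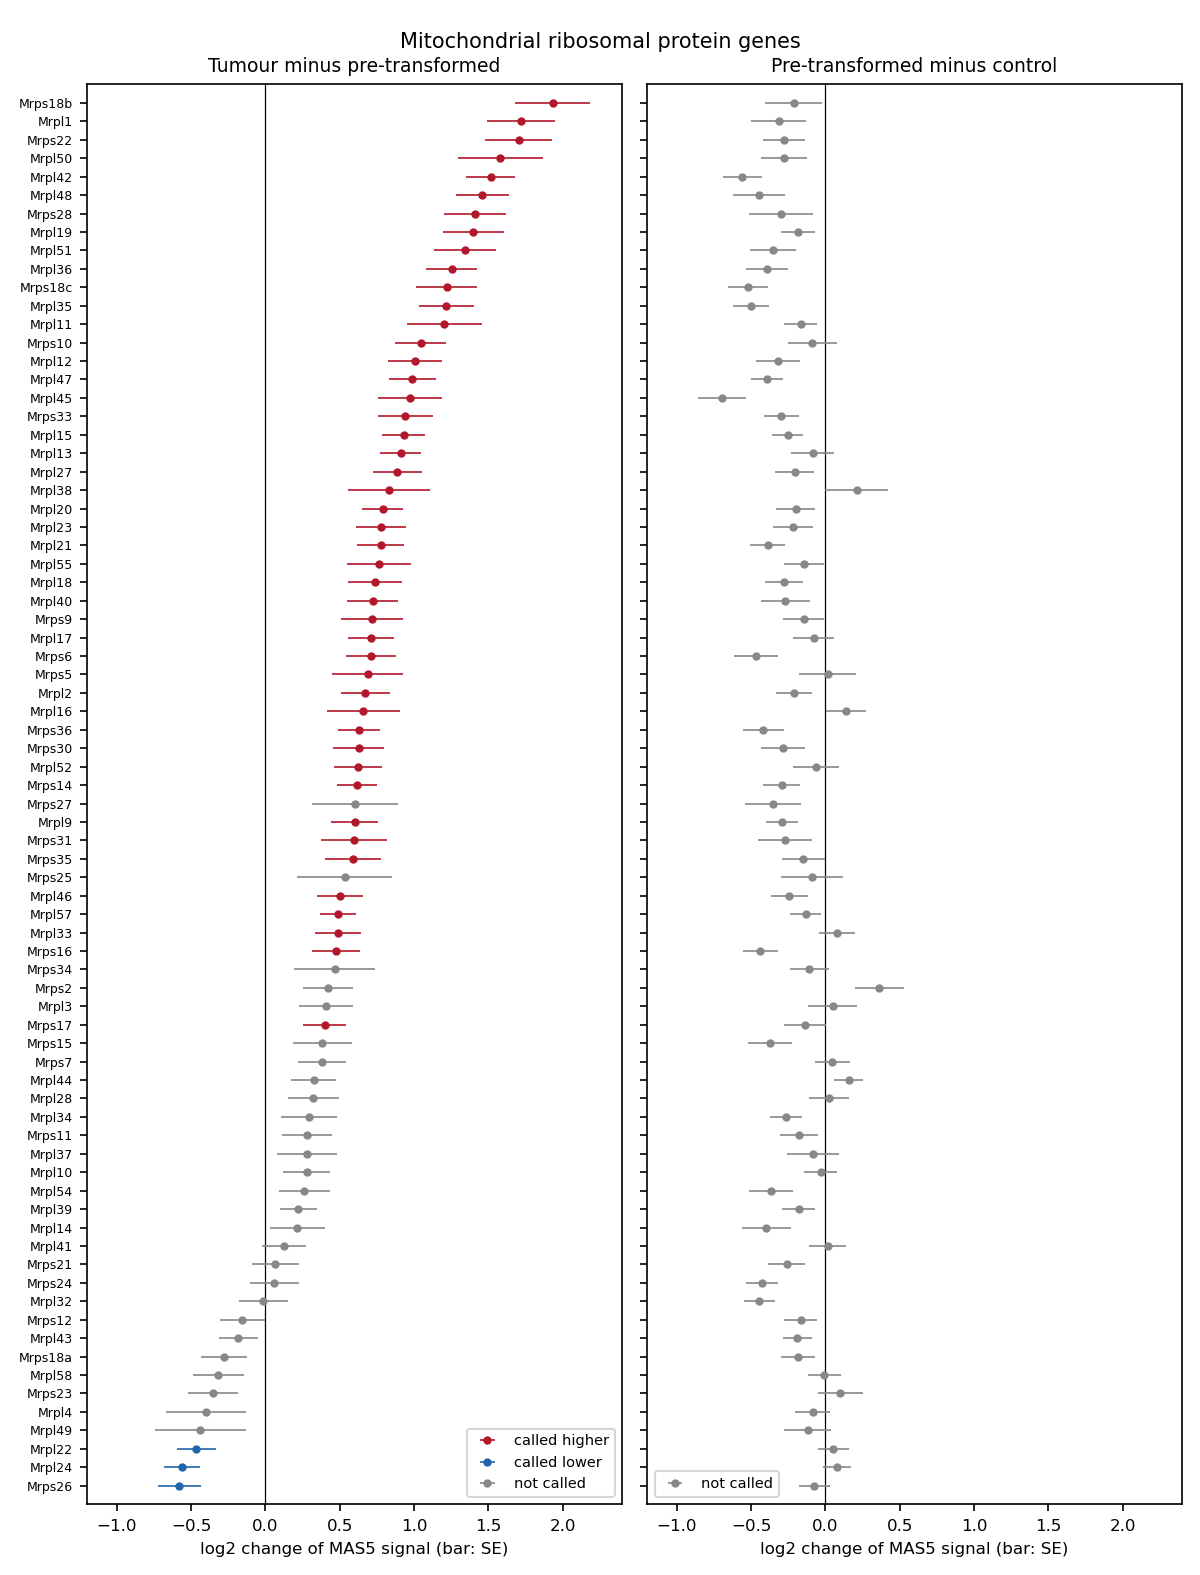
Log2 change of MAS5 signal (points; bars are standard errors of the limma fit) of each of the 76 mitochondrial ribosomal protein genes, tumour minus pre-transformed on the left and pre-transformed minus control on the right, in the same gene order. On the left 46 genes were called higher (red), 3 lower (blue) and 27 were not called (grey); on the right no gene was called and 63 of the 76 points lie below 0.

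Among the large-subunit genes, 31 of 49 rose and 2 fell, with a median log2 change of 0.66. Among the small-subunit genes, 14 of 26 rose and 1 fell, with a median of 0.56. Genes with a bacterial counterpart (28 of 44 higher, 2 lower, median 0.67) and genes for proteins found only in mitochondria (17 of 31 higher, 1 lower, median 0.59) had similar counts, and no difference between these classes was tested. Mrps36 carries the name but is now regarded as a subunit of the 2-oxoglutarate dehydrogenase complex and is in neither subunit here. It rose by 0.63 ± 0.14 on the log2 scale (SE, adjusted p = 0.00411). The median change was 0.63 in the 26 dimmest members, 0.63 in the next 25 and 0.60 in the 25 brightest.

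The largest change among the members was that of Mrps18b, which encodes mS40, one of the proteins on the small subunit related to bacterial bS18. It had signals of 432.1, 511.5, 348.2 and 246.4 in tumours 1 to 4, against 119.9, 79.1 and 96.8 in pre-transformed thymocytes and 109.7 and 115.8 in controls. Every tumour was above every array of sorted cells, and pre-transformed and control arrays overlapped. The change of tumours over pre-transformed thymocytes was 1.93 ± 0.26 on the log2 scale (SE, limma adjusted p = 0.000189), or 3.82-fold. Mammals have 3 genes of this family. Mrps18c, which encodes bS18m at the place of the bacterial protein, had 1149.4, 832, 707.4 and 1221.5 in tumours, against 428.9, 352.5 and 453.3 in pre-transformed thymocytes and 549.4 and 629.1 in controls. It rose by 1.22 ± 0.20 over pre-transformed thymocytes (adjusted p = 0.000735), with no overlap between any of the groups. Mrps18a, whose product mL66 lies in the large subunit, had 285.7, 363.9, 294.4 and 254.6 in tumours, against 368.5, 387 and 327.8 in pre-transformed thymocytes and 400.3 and 417.4 in controls. Its change was −0.28 ± 0.16 (adjusted p = 0.154), and the tumour and pre-transformed arrays overlapped. The family thus held 2 genes that rose and 1 that did not pass the test. A test of the difference between the genes was not made. Without tumour 2, the tumour highest in Mrps18a, its change was −0.38 and called lower (adjusted p = 0.048).

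Mrpl1 encodes uL1m, the protein of the stalk beside the exit site of the transfer RNA. Its signals were 228.9, 324.8, 177.3 and 278.2 in tumours, against 62.2, 78.1 and 85.5 in pre-transformed thymocytes and 87.2 and 98.9 in controls, and it rose 3.30-fold over pre-transformed thymocytes (log2 change 1.72 ± 0.23, adjusted p = 0.000205). Mrps22 encodes a small-subunit protein found only in mitochondria, and mutations in the human gene impair mitochondrial translation. It had 847.2, 927.9, 489.8 and 863.4 in tumours, against 211.7, 265.7 and 224.6 in pre-transformed thymocytes and 260.2 and 307 in controls. Tumour 3 was the lowest tumour for both genes, yet it lay above every sorted array. The change of Mrps22 was 1.71 ± 0.22 (adjusted p = 0.000182).

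Mrpl50, Mrpl42 and Mrpl48 encode large-subunit proteins found only in mitochondria. Mrpl42 had 1201, 1047.5, 809.6 and 1101.9 in tumours, against 345.6, 354 and 381.1 in pre-transformed thymocytes and 466.3 and 603.1 in controls. The 3 groups did not overlap, with pre-transformed thymocytes lowest and tumours highest. Its change over pre-transformed thymocytes, 1.52 ± 0.16, had the smallest adjusted p among the 8 members with the largest change (6.25e-05). With the mean of all its probe sets Mrpl42 did not pass the test (1.20, adjusted p = 0.0922). That mean takes in a dim probe set with signals of 0.1 to 4.5. Mrpl50 had 452.3, 453.5, 248.8 and 210.5 in tumours, against 116.9, 104.5 and 101.7 in pre-transformed thymocytes and 117.7 and 144.8 in controls, a change of 1.58 ± 0.28 over pre-transformed thymocytes (adjusted p = 0.00111). Tumours 1 and 2 were about alike in Mrpl50 and stood above tumours 3 and 4. Mrpl48 had 564.2, 418.7, 437.7 and 446.1 in tumours, against 142.6, 197.4 and 169.8 in pre-transformed thymocytes and 201.3 and 261.4 in controls, a change of 1.46 ± 0.18 over pre-transformed thymocytes (adjusted p = 0.000128).

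Mrps28 encodes bS1m, related to a part of bacterial S1. Its signals were 672.5, 568.2, 565.8 and 454.7 in tumours, against 163, 268.5 and 213.9 in pre-transformed thymocytes and 225.4 and 299.1 in controls. It rose by 1.41 ± 0.21 over pre-transformed thymocytes (adjusted p = 0.000363). Mrpl19 encodes bL19m, whose bacterial counterpart lies where the subunits meet. It had 462.6, 738.7, 385 and 477.7 in tumours, against 192.2, 193.8 and 183.2 in pre-transformed thymocytes and 211.2 and 219.5 in controls, and rose by 1.40 ± 0.21 over pre-transformed thymocytes (adjusted p = 0.000362). In both genes every tumour lay above every sorted array. The SD of Mrpl19 on the log2 scale was 0.40 in tumours, 0.04 in pre-transformed thymocytes and 0.04 in controls, and that of Mrps28 was 0.23 in tumours, 0.36 in pre-transformed thymocytes and 0.29 in controls.

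Upstream sequences of 4 members that hold motifs of factors known to act on genes of mitochondrial proteins are shown as examples. Of these genes 3 rose and 1, Mrps26, fell. Other named members hold such motifs too. Among them are Mrpl48, which rose, Mrpl22, which fell, and Mrpl10, Mrpl3, Mrpl32 and Mrps12, which did not pass the test. The sequences shown are from RefSeq (GRCm38.p6), written 5′ to 3′ on the gene's strand, with the motif in capitals. The stretch of Mrps18b (chr17:35916584-35916683, minus strand) ends 144 bases before the start of the gene and holds the NRF1 motif on the opposite strand, and that of Mrps18c (chr5:100798576-100798675, plus strand) ends 84 bases before it and holds an E-box, the motif bound by Myc, followed at once by the ETS motif on the opposite strand. The stretches of Mrps22 (chr9:98601680-98601779, minus strand) and Mrps26 (chr2:130563657-130563756, plus strand) end just before the start of the gene and hold the ETS motif, which GABP binds, in Mrps26 on the opposite strand.
Mrps18b: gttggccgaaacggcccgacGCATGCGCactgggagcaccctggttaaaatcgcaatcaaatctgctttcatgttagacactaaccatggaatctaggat
Mrps18c: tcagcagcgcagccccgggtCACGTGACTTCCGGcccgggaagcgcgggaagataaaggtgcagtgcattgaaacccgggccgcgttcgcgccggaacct
Mrps22: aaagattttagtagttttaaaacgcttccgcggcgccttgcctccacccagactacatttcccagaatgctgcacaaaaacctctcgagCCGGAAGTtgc
Mrps26: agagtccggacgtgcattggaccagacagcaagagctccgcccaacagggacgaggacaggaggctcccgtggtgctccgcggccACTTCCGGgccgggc

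Promoter windows of 300 bases (250 before the start of the gene and 50 after it) were given for 67 of the 76 genes, 73 windows in all, and were searched for exact matches on both strands. The ETS motif CCGGAAGT was in 12 of the 73 windows (16.4%), beside 8.17% of the 11993 windows of genes tested and 3.89% of all 32851 windows. The motif AAGATGGC of the zinc-finger protein YY1 was also in 12 windows (16.4%), beside 4.49% of the windows of genes tested. It was in 3 of the 46 windows of members called higher in tumours (6.52%) and in 9 of the 27 windows of the other members (33.3%). The NRF1 motif GCGCATGC was in 8 windows (11%), beside 5.14%. The E-box CACGTG, which reads the same on both strands, was in 7 windows (9.59%), beside 9.9% of the windows of genes tested. It was in 6 of the 46 windows of members called higher, which belong to 4 of 40 genes since windows of a gene can overlap, and in 1 of the 27 windows and genes of the other members. By gene it was in 7.46% of the members and 11.8% of the genes tested. These counts describe letters in the windows, were not tested, and say nothing of binding.

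Genes of these factors and of related regulators were read as well. Myc, which encodes a transcription factor that acts through the E-box, had group means of 1385 in tumours, 74.9 in pre-transformed thymocytes and 72.3 in controls, and its change over pre-transformed thymocytes was 4.21 ± 0.27 on the log2 scale (adjusted p = 7.58e-06). Pprc1, a coactivator related to PGC-1α, rose by 1.68 ± 0.35 (adjusted p = 0.00284). Esrra, a nuclear receptor that acts on genes of energy metabolism, fell by 1.06 log2 units (adjusted p = 0.00857). Nrf1 had a change of −0.44 (adjusted p = 0.276), Gabpa of −0.33 (adjusted p = 0.163), Gabpb1 of −0.16 (adjusted p = 0.416), Yy1 of 0.05 (adjusted p = 0.782) and Ppargc1b of −0.15 (adjusted p = 0.669), none of which passed the test. Of the 9 regulators listed, 8 were tested, 2 rose and 1 fell, beside 23.8% higher and 31.1% lower over all genes. Ppargc1a was too dim to be tested.

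Genes of the stalk that recruits translation factors also rose in part. Mrpl11 had 856.7, 669.5, 432.6 and 389.2 in tumours, against 249.8, 237.6 and 238.1 in pre-transformed thymocytes and 260.5 and 282.7 in controls, and rose by 1.21 ± 0.25 over pre-transformed thymocytes (adjusted p = 0.0028). Mrpl12 had 946.7, 973.9, 934.9 and 650.5 in tumours, against 402.9, 521.7 and 378.3 in pre-transformed thymocytes and 506.3 and 569.5 in controls, and rose 2.01-fold over pre-transformed thymocytes (adjusted p = 0.00112). Tumour 4 was the lowest tumour for both. Mrpl10, which encodes the protein that carries the copies of the Mrpl12 product, had a change of 0.28 ± 0.16 (adjusted p = 0.161). Without tumour 4 its change was 0.39 and called higher (adjusted p = 0.037).

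Other members on a list fixed for their known roles gave mixed results. Mrps2, Mrps7 and Mrps12 encode small-subunit proteins kept since bacteria, and their changes over pre-transformed thymocytes were 0.42 (adjusted p = 0.0538), 0.38 (adjusted p = 0.0683) and −0.16 (adjusted p = 0.398). Mrpl3, whose product lies near the site of peptide bond formation, changed by 0.41 (adjusted p = 0.0797), Mrpl44 by 0.33 (adjusted p = 0.093) and Mrpl41 by 0.13 (adjusted p = 0.485). Mrps34, which encodes a small-subunit protein found only in mitochondria, changed by 0.47 ± 0.28 (adjusted p = 0.176). Its tumours were spread widely, at 926.2, 572.4, 567.9 and 347.6, and tumour 4 was below all 3 pre-transformed arrays (480.7, 369.2 and 393.7). Without tumour 4 the changes of Mrps34 (0.70, adjusted p = 0.0211), Mrps7 (0.47, adjusted p = 0.026), Mrps2 (0.47, adjusted p = 0.0488) and Mrpl44 (0.40, adjusted p = 0.0496) were called higher, and without tumour 3 so were those of Mrpl3 (0.50, adjusted p = 0.04) and Mrpl44 (0.39, adjusted p = 0.0495). With the mean of all probe sets Mrps2 (1.19, adjusted p = 0.00281) and Mrpl44 (0.84, adjusted p = 0.00343) were also called higher. Mrps30, which despite its name encodes a large-subunit protein, rose by 0.63 ± 0.17 (adjusted p = 0.0105).

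The 3 members that fell were Mrps26, Mrpl24 and Mrpl22. Mrps26, for a small-subunit protein found only in mitochondria, had 465.3, 433.5, 598.4 and 468 in tumours, against 765.4, 669.3 and 753.9 in pre-transformed thymocytes and 752.7 and 782.5 in controls. Mrpl24, for the large-subunit protein uL24m, had 963, 737.6, 870.2 and 879.1 in tumours, against 1299.4, 1268.1 and 1229.2 in pre-transformed thymocytes and 1172.3 and 1224.8 in controls. Mrpl22, for uL22m, which lines the tunnel through which the new protein leaves, had 600.8, 585.1, 733 and 707.5 in tumours, against 839.1, 948.4 and 920.6 in pre-transformed thymocytes and 822.2 and 918.5 in controls. Every tumour lay below every sorted array in all 3 genes. Relative to pre-transformed thymocytes Mrps26 was 1.49-fold lower (log2 change −0.58 ± 0.14, adjusted p = 0.00644), Mrpl24 1.47-fold lower (−0.56 ± 0.12, adjusted p = 0.00328) and Mrpl22 1.38-fold lower (−0.46 ± 0.13, adjusted p = 0.0131). The call of Mrpl22 was lost without pre-transformed array 2 (adjusted p = 0.051) or 3 (adjusted p = 0.0519). That of Mrps26 was lost with the mean of its probe sets (adjusted p = 0.446), which takes in a dim one with signals of 0.5 to 19.5.

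The next lowest members did not pass the test. Mrpl49 had a change of −0.44 ± 0.31 (adjusted p = 0.247), with tumours between 93.4 and 257.6. Mrpl4, which encodes another protein of the exit tunnel, had −0.40 ± 0.27 (adjusted p = 0.231), with tumours between 171.9 and 433.1. Both had tumours on either side of the pre-transformed arrays, and without tumour 3, the highest, Mrpl4 was called lower (−0.62, adjusted p = 0.0327). Mrps23 had −0.35 ± 0.17 (adjusted p = 0.0961). Mrpl58, which encodes a hydrolase that frees stalled ribosomes, had −0.32 ± 0.17 (adjusted p = 0.143). Under median centring Mrpl58 and Mrps23 were also called lower.

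**Figure D2:**
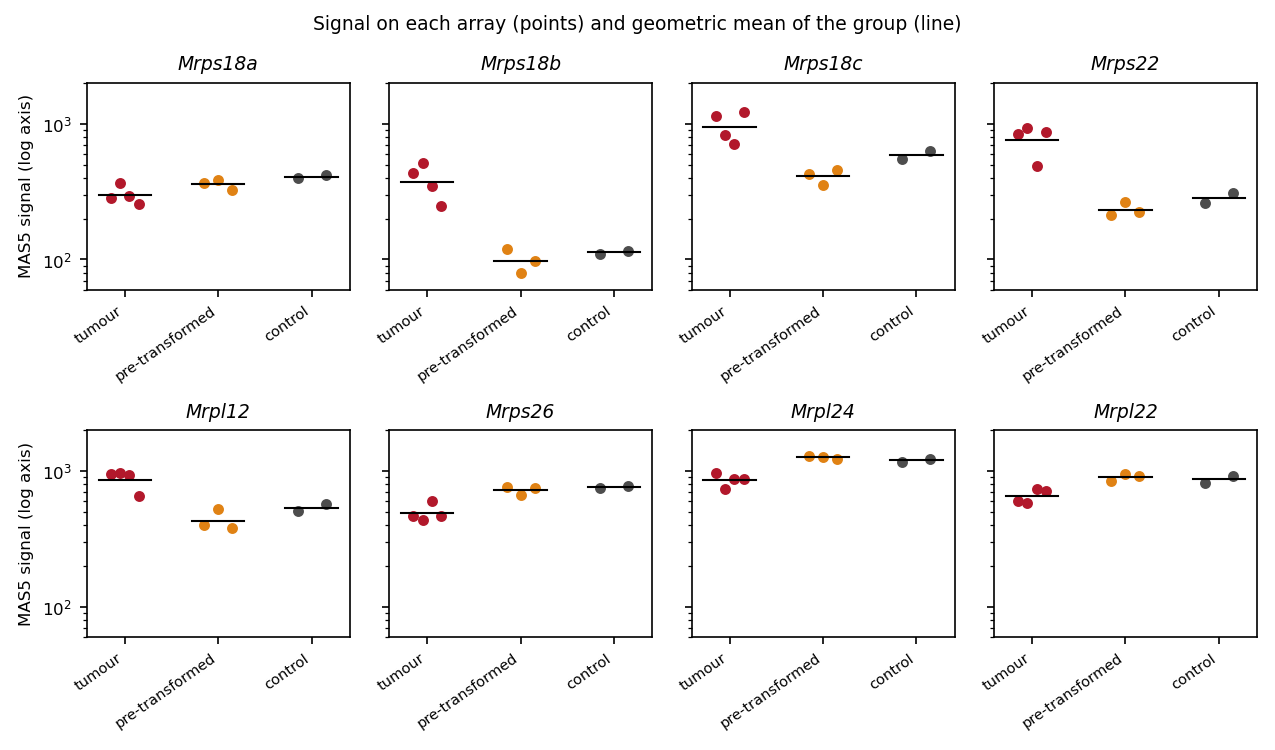
MAS5 signal (log axis) on each array for 8 members, tumours (red), pre-transformed thymocytes (orange) and controls (grey), with the geometric mean of each group as a line. Mrps18b, Mrps18c, Mrps22 and Mrpl12 are higher on all 4 tumour arrays than on any sorted array, Mrps26, Mrpl24 and Mrpl22 are lower on all 4, and for Mrps18a the tumour and pre-transformed arrays overlap.

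The level of the whole set was also taken array by array. The median over the members of the log2 signal, taken relative to the mean of the pre-transformed arrays, was 0.73, 0.63, 0.50 and 0.45 in tumours 1 to 4, between −0.03 and 0.04 in pre-transformed thymocytes, and 0.13 and 0.31 in controls 1 and 2. All 4 tumours were above all sorted arrays, and both controls were above all pre-transformed arrays. The ages were 28, 26, 23 and 21 weeks in the same order of tumours, and with 4 tumours no relation to age was tested. Tumour 4 was the lowest tumour for 35 of the 76 members and tumour 3 for 23, and the highest was tumour 2 for 27 members and tumour 1 for 26. Relative to the median of all genes tested on the same array, which a constant factor on an array cannot alter, the median member lay 1.87 to 2.28 log2 units higher in tumours, 1.17 to 1.24 in pre-transformed thymocytes and 1.36 and 1.51 in controls. The members had a median SD of 0.24 on the log2 scale between tumours, beside 0.42 over all genes tested. The same medians were 0.12 and 0.19 in pre-transformed thymocytes, and 0.14 and 0.12 in controls.

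**Figure D3:**
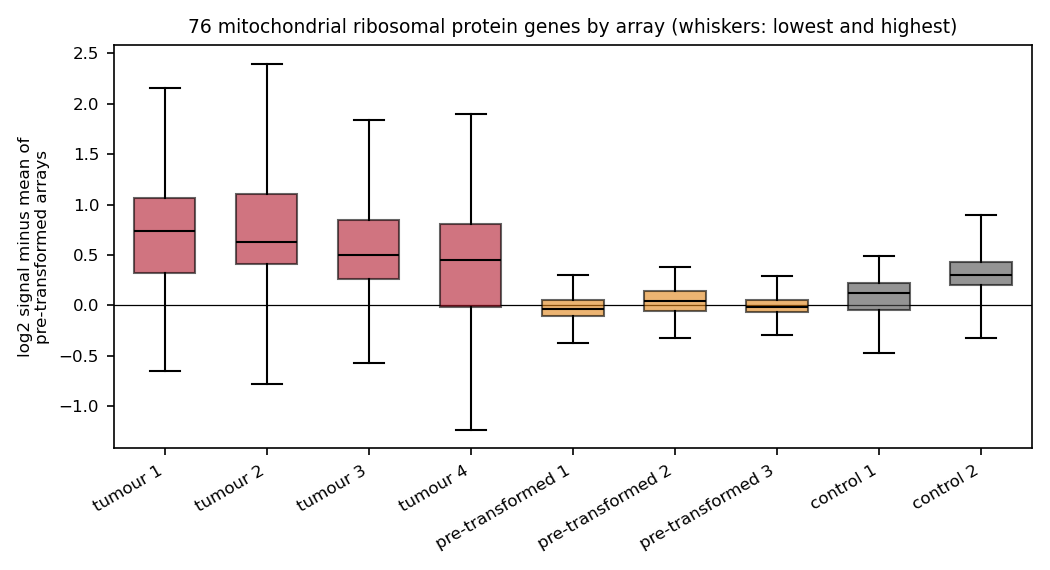
Log2 signal of the 76 members on each array, minus the gene's mean over the 3 pre-transformed arrays (boxes: quartiles with the median as a line, whiskers: lowest and highest member). The medians are 0.73, 0.63, 0.50 and 0.45 in tumours 1 to 4, near 0 in the pre-transformed arrays, and 0.13 and 0.31 in the controls.

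Other facts of the arrays went with the tumour group. The β-actin probe sets had a log2 ratio of 3′ to 5′ signal of 0.81 ± 0.28 in tumours and 0.26 ± 0.05 in sorted cells (SD, n = 4 and 5, exact two-sided permutation p = 0.0159, the smallest that the 126 allocations give), and the Gapdh ratio was −0.31 ± 0.19 in tumours and −0.20 ± 0.12 in sorted cells (exact permutation p = 0.317). Against pre-transformed thymocytes, 7 of 8 markers of double-positive thymocytes were lower in tumours, and Cd4 was not called. Against controls 6 were lower and 1, Cd4, was higher. The summed signal of these markers was 9527 to 13688 in tumours, 23252 to 25211 in pre-transformed thymocytes, and 22024 and 23327 in controls. Of the 6 myeloid markers 2 were higher, and their summed signal was 3013, 148.2, 3207 and 2896 in tumours 1 to 4, against 131.9 to 237.1 in pre-transformed thymocytes and 143.6 and 116.8 in controls. Tumour 2, at the level of the sorted cells for this list, had a members' median of 0.63, between those of tumours 1 and 3. Of the 3 B-cell markers tested, 1 was higher against pre-transformed thymocytes and 0 against controls. The summed B-cell markers were 377.4, 9.2, 303.3 and 447.2 in tumours, against 212 to 225.5 in pre-transformed thymocytes and 245.6 and 267 in controls. Stromal and endothelial markers summed to 155.5 to 383.4 in tumours, 139.9 to 191 in pre-transformed thymocytes and 137.4 to 160.7 in controls, and thymic epithelial markers to 35.4 to 71.9, 35.4 to 41.4 and 26.8 to 40.9 in the same groups. None of these genes was called against pre-transformed thymocytes, and 1, Col1a2, was called higher against controls (adjusted p = 0.0124). Erythroid markers (1 of 1 tested higher) summed to 4.3 to 61.3 in tumours and at most 1.6 in sorted cells. The part of the labelling and of the other cells in the results was not tested.

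The same tumours were compared with the controls, the double-positive thymocytes without Cre. Here 29 members were higher (20.5% of all genes) and 3 were lower (25.3% of all genes). The median log2 change was 0.43 beside −0.08 over all genes tested. Without the filter on dim probe sets, the median over all genes was 0.36, beside 0.43 over the members. Both comparisons share the tumour arrays, so their calls are not independent. Of the 29 higher members, 27 were also higher against pre-transformed thymocytes, and the other two were Mrpl44 (0.48, adjusted p = 0.0422) and Mrps2 (0.78, adjusted p = 0.00786). Mrps26, Mrpl24 and Mrpl22 were the 3 lower members again. None of the 3 lower calls and not that of Mrpl44 held without control 1 or without control 2. The largest changes were those of Mrps18b (1.72 ± 0.29, adjusted p = 0.00124), Mrps22 (1.43 ± 0.25, adjusted p = 0.00167) and Mrpl1 (1.41 ± 0.26, adjusted p = 0.0021). These counts leaned on the 2 control arrays and on the scaling. The members' median was 0.32 without control 1 and 0.49 without control 2, beside −0.09 and −0.08 over all genes. With each array centred on its median there were 3 higher members (Mrpl1, Mrps18b and Mrps22), beside 10.7% of all genes. There were 12 lower members, beside 35.6% of all genes. The members' median was then 0.044 beside −0.47 over all genes.

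Activated β-catenin before transformation was addressed by the sorted cells alone, which were labelled alike. None of the 76 members passed the test between pre-transformed and control thymocytes in the limma fit of these 5 arrays (1.16% of all genes were called higher and 0.57% lower). With p-values left unadjusted and a threshold of 0.05, the same fit gave 22 lower members and 0 higher, while across all genes 7.9% were lower and 9.74% higher. The change was negative in 63 of the 76 members (82.9%) and in 46.6% of all genes tested, with medians of −0.20 over the members and 0.02 over all genes. The arrays did not overlap, with pre-transformed thymocytes lower, in 33 members (15.7% of all genes), and with them higher in 2 members (20.7% of all genes). The members' median was −0.31 without control 1 and −0.13 without control 2, and it was −0.34 with median centring, where the median of all genes was −0.11 and 72 members were negative.

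The smallest unadjusted p among the members belonged to Mrpl32, Mrpl45 and Mrpl42. Mrpl32 encodes bL32m, whose cleavage by an inner-membrane protease precedes its entry into the ribosome, and it had 558.4, 634.3 and 583.9 in pre-transformed thymocytes, against 797 and 813.1 in controls (log2 change −0.44 ± 0.10, limma adjusted p = 0.0748). Without pre-transformed array 2 it was called lower (−0.50, adjusted p = 0.0429). Mrpl45, for a protein that ties the ribosome to the inner membrane, had 154.5, 189 and 181.7 in pre-transformed thymocytes, against 244.9 and 325.7 in controls (−0.70 ± 0.16, limma adjusted p = 0.0749). Mrpl42, whose signals are given above, had −0.56 ± 0.13 (limma adjusted p = 0.0807). In all 3 genes every pre-transformed array was below both controls. The tumours differed between them. Mrpl45 rose in tumours over pre-transformed thymocytes by 0.97 ± 0.21 (adjusted p = 0.00356), whereas Mrpl32 had 602, 493.8, 518.5 and 765.2 in tumours and a change of −0.01 ± 0.16 (adjusted p = 0.952).

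Genes whose products work with the mitochondrial ribosome were read from lists of known function. The 4 subunits that carry other names held 3 that rose over pre-transformed thymocytes: Chchd1 (1.60 ± 0.13, adjusted p = 1.64e-05), Ptcd3 (1.53 ± 0.25, adjusted p = 0.000605) and Dap3 (0.42 ± 0.13, adjusted p = 0.0222), all of the small subunit. Gadd45gip1, of the large subunit, changed by 0.59 ± 0.47 (adjusted p = 0.31). Subunits of the respiratory chain and ATP synthase, a list that holds the nuclear-encoded partners of the proteins this ribosome makes, rose in 51 of 75 genes and fell in 4, with a median of 0.59. Cytosolic ribosomal protein genes rose in 38 of 42 and fell in none, with a median of 0.66. Import and chaperone genes rose in 19 of 26 and fell in none, with a median of 0.78, among them Timm8a1 (2.53 ± 0.18, adjusted p = 8.66e-06) and Timm23 (1.54 ± 0.12, adjusted p = 1.64e-05), for parts of the inner-membrane import path, and Hspa9 (2.25 ± 0.22, adjusted p = 3.87e-05), for the chaperone that pulls proteins into the matrix.

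Lists for making and running the ribosome held genes that rose and genes that fell. Their counts stand beside 23.8% higher and 31.1% lower over all genes, and no difference from other genes was tested. Of 26 assembly and ribosomal RNA modification genes 10 rose and 5 fell, with a median of 0.21 on the log2 scale. Slirp (1.53 ± 0.16, adjusted p = 5.66e-05) and Lrpprc (1.41 ± 0.17, adjusted p = 0.000107), whose products form a complex that stabilises mitochondrial messenger RNAs, rose, as did Fastkd2 (2.07 ± 0.28, adjusted p = 0.000207), for an RNA-binding assembly factor. Mtg2, for a GTPase of large-subunit assembly, fell by 1.90 log2 units (adjusted p = 0.000122), and Dhx30, for an RNA helicase, by 1.04 (adjusted p = 0.00151). Of 13 translation factors 4 rose and 4 fell. Mrrf, for the ribosome recycling factor, rose by 2.56 ± 0.25 (adjusted p = 3.71e-05), Oxa1l, for the membrane insertase, by 1.46 (adjusted p = 0.000179), and Gfm1, for elongation factor G, by 1.22 (adjusted p = 0.000908). Mtif3, for an initiation factor, fell by 1.08 log2 units (adjusted p = 0.00262), and Mtfmt, for the enzyme that formylates the initiator, by 0.66 (adjusted p = 0.00467). Tufm, for elongation factor Tu, changed by −0.10 (adjusted p = 0.71).

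Of 19 genes for charging mitochondrial transfer RNAs 6 rose and 4 fell. Qrsl1, for a subunit of the glutamine amidotransferase, rose by 1.19 ± 0.19 (adjusted p = 0.000525), while Vars2 fell by 1.71 log2 units (adjusted p = 0.000308) and Cars2 by 1.18 (adjusted p = 0.000526), the synthetases for valine and cysteine. Of 19 genes of mitochondrial DNA transcription and maintenance 9 rose and 4 fell. Top1mt, for the mitochondrial topoisomerase, rose by 4.80 ± 0.42 (adjusted p = 2.44e-05), and its group means were 285.1 in tumours, 10.3 in pre-transformed thymocytes and 9.52 in controls, so the sorted cells were near the array median. Polg, for the DNA polymerase, fell by 1.69 log2 units (adjusted p = 0.000207) and Polrmt, for the RNA polymerase that transcribes the mitochondrial genome, by 0.77 (adjusted p = 0.00787). Tfam, which packages that genome, rose by 0.46 (adjusted p = 0.0369), and the nuclease gene Mgme1 by 1.497 (adjusted p = 0.00282). Between pre-transformed and control thymocytes, 1 gene of all these lists passed the test, the import gene Tomm7, with a change of −0.52 (adjusted p = 0.044). The respiratory chain and ATP synthase list was negative there in 69 of 75 genes (median −0.23), and the cytosolic ribosomal protein list in 39 of 42 (median −0.12).

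**Figure D4:**
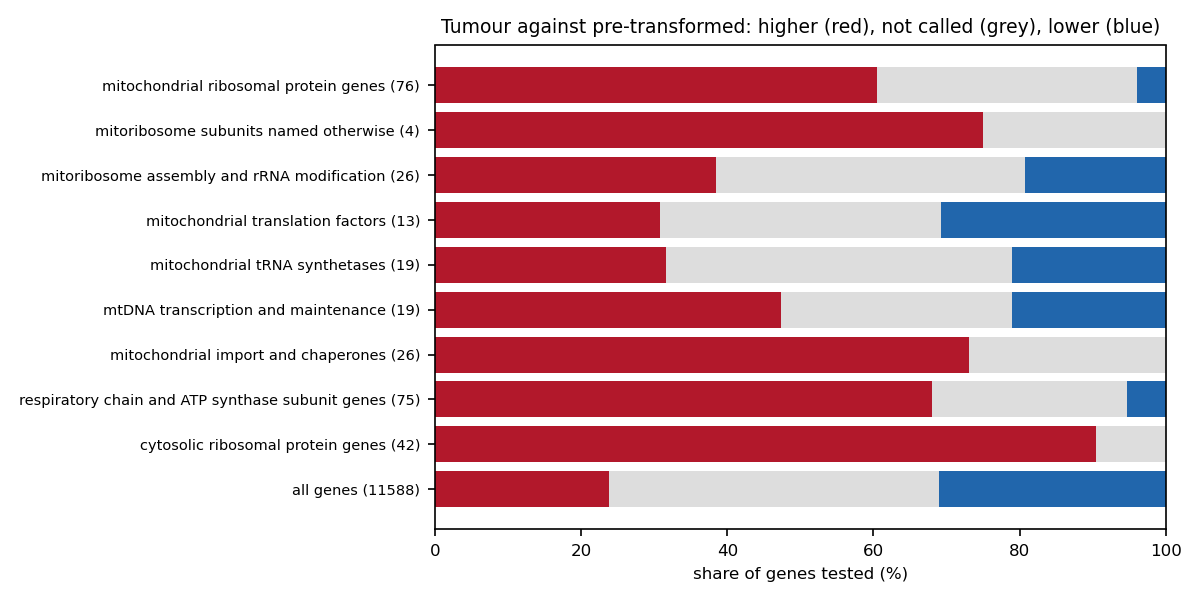
Share of the genes tested (%, horizontal axis) that were called higher (red), not called (grey) or called lower (blue) in tumours against pre-transformed thymocytes, for the members, 8 other gene lists and all genes (number tested in brackets). Of the 76 mitochondrial ribosomal protein genes 46 were higher and 3 lower, beside 23.8% and 31.1% of all 11588 genes.

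Many members have more than 1 probe set, and these did not always move alike. The 76 genes have 156 probe sets that name them alone, and 42 genes have several. Besides the brightest, 70 further probe sets passed the filter on dim values, of which 44 changed in the same direction as the brightest between tumours and pre-transformed thymocytes and 26, in 20 genes, in the opposite one. Among the 49 with a group mean of 40 or more, 34 ran the same way and 15 the other. The largest gap was in Mrps11, for the small-subunit protein uS11m, whose brightest probe set changed by 0.28 (adjusted p = 0.184). Another changed by −3.18 (group means of 6.25 in tumours, 56.7 in pre-transformed thymocytes and 33.3 in controls). Its tumour signals of 0.7, 8.1, 15.5 and 17.4 lay near or below the medians of their arrays, so the size of this change is uncertain. For Mrps9 the brightest rose by 0.72, and further probe sets changed by 0.73 and 0.29 in the same direction. Another changed by −1.85 (42.5 in tumours, 152.8 in pre-transformed thymocytes and 161.2 in controls). For Mrpl38 the brightest, whose probes may match other transcripts, rose by 0.83, and another changed by −1.78 (17.4 in tumours, 59.6 in pre-transformed thymocytes and 47.4 in controls). In these 3 genes the direction thus depended on the probe set. The call of Mrpl38 was also lost without tumour 1, tumour 3, pre-transformed array 1 or pre-transformed array 3 (adjusted p of 0.0587 to 0.111), and that of Mrps9 without pre-transformed array 2 (adjusted p = 0.0625), while Mrps11 was called higher without tumour 4 (0.39, adjusted p = 0.0475).

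In other genes the further probe set was dimmer or the gap smaller. For Mrpl21 and Mrpl15 the brightest rose by 0.78 and 0.93 and a dimmer one changed by −0.98 and −0.95. The other probe sets of Mrpl15 that passed the filter changed by 1.499, 1.541, 1.49 and 1.175. For Mrps6 the brightest, of the shared kind, rose by 0.71 and the next changed by −0.17. Mrps21 had 0.07 and −1.10, Mrps24 0.06 and −0.61, Mrps25 0.53 and −0.16, Mrpl57 0.49 and −0.51, and Mrpl41 0.13 and −0.17, each pair with the brightest first. Mrpl3 had 0.41 for the brightest, 1.52 for the next (group means of 291.8 in tumours, 101.9 in pre-transformed thymocytes and 119.5 in controls) and −0.44 for a dim one, all against pre-transformed thymocytes. Mrpl49 and Mrps23 ran the other way, with −0.44 and −0.35 for the brightest, 0.03 for a further probe set of Mrpl49, and 0.38 and 0.62 for both further ones of Mrps23. The remaining opposite probe sets, of Mrpl47, Mrpl48, Mrpl51, Mrpl52, Mrpl58 and Mrps14 among others, were all below a group mean of 40. Of the 8 members with the largest change, Mrpl48 was the only member with a probe set of opposite sign that passed the filter, a dim one with −0.46. A further 4 probe sets name a member together with another gene and were left out, so Mrpl30 and Mrpl53 are not represented. The one that names Mrps34 and Nme3 changed by −1.63 against pre-transformed thymocytes and −1.87 against controls. The probe set that names Mrps34 alone changed by 0.47 and 0.36.

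**Figure D5:**
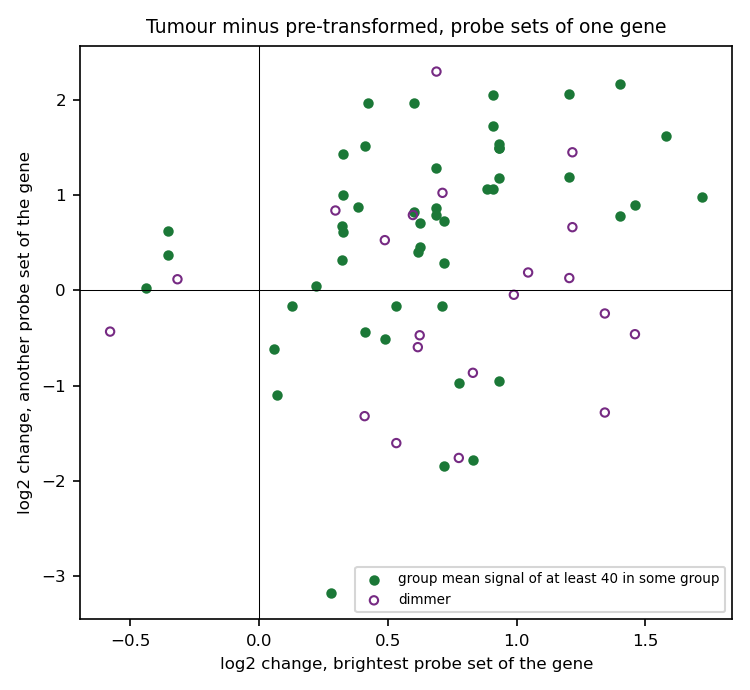
Log2 change, tumour minus pre-transformed, of each further probe set of a member (vertical axis) against that of the member's brightest probe set (horizontal axis), filled where a group mean signal reached 40 and open where it did not. Of 70 further probe sets 44 lie in the quadrants of equal sign and 26 in those of opposite sign, the lowest being that of Mrps11 at −3.18.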

How the data were processed

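Total RNA of 9 thymus samples was hybridised to Affymetrix mouse arrays, 1 per mouse. The deposited values are MAS5 signal intensity on a linear scale, per the submitters' processing notes (with no software version in the sources used here), and the 2% trimmed mean of each array is 100. The table holds 45101 probe sets, 64 of them controls. Through the platform annotation 34945 name a single gene, 932 name several and 9160 are unnamed here.

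From these values log2 was taken after setting 218 zeros to 0.1. A gene is its single-symbol probe set with the highest mean log2 signal, tested if that probe set reached its array's median on at least 2 arrays. limma 3.58.1 in R 4.3.3 (lmFit, eBayes with a variance trend) was fitted to all 11588 genes, with 9 arrays for tumour comparisons and the 5 sorted arrays for pre-transformed against control, at a Benjamini-Hochberg adjusted p under 0.05. The steps were tested on simulated data in which all groups shared the same spread of a gene. That setting does not cover the wider spread between tumours. Replicates are different mice. Named genes are the 8 members with the largest and the 8 with the smallest change, the 3 with the smallest p before transformation, a fixed set by role, members whose probe sets differ in sign, and the leading genes of each list. The members, lists and rules were chosen with earlier results of these data known. Alternatives covered the filter, scaling, floor, probe set choice, variance trend, 2-fold minimum, replicate block, the choice of arrays fitted, and the removal of single arrays. Replicate numbers name different mice, and same-numbered arrays correlated by −0.02 to 0.09 after removing group means, so the numbers were not taken as pairs. Exact permutation tests used scipy 1.17.1, and figures matplotlib 3.10.9.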

Additional observations from a re-analysis of the deposited data

Results flagged for a closer look

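In 5 of the 76 members 1 tumour stood far from the other three, by a gap to its nearest neighbour above Dixon's 95% critical value for 4 samples. Chance gives this in about 1 in 20 groups of values, and the members share the same 4 tumours. Mrpl12 was lowest in tumour 4, at 650.5, with the others between 934.9 and 973.9. Mrpl33, a large-subunit gene with a bacterial counterpart, was highest in tumour 4, at 282.4, with the others between 218 and 225.9. Tumour 3 was lowest for Mrps22, at 489.8, with the others between 847.2 and 927.9, and for Mrps31, at 155.2, with the others between 241.9 and 254.6. Tumour 3 was highest for Mrps6, at 445, with the others between 332.7 and 348.8.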

How the results depend on the processing

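Of the 46 members higher in tumours than in pre-transformed thymocytes, 12 were called higher under all 21 alternatives, and 16 when the 2-fold minimum is set aside. Those 12 are Mrpl1, Mrpl11, Mrpl12, Mrpl19, Mrpl35, Mrpl36, Mrpl48, Mrpl50, Mrps18b, Mrps18c, Mrps22 and Mrps28. With each array centred on its median, 20 members were higher (16% of all genes) and 5 lower (36.9% of all genes), with a median log2 change of 0.35. The median was 0.73 with quantile normalization, and a 2-fold minimum left 15 higher (15.7% of all genes) and 0 lower (21.3% of all genes). With the mean of all probe sets, which takes in probe sets too dim to pass the filter, the median was 0.51 beside 0.0051 over all genes. With the replicate number as a block 47 were higher and 3 lower, and the numbers are not pairs. Leaving out single arrays gave 37 to 51 higher. Against controls, 29 higher and 3 lower became 3 and 12 with median centring (median 0.044), beside 10.7% and 35.6% of all genes. They became 9 and 0 with the 2-fold minimum (14% and 18% of all genes), and 28 and 4 with the block (18.2% and 25.5%). There were 6 lower with quantile normalization, 5 without probe sets of shared sequence, 1 with the pre-transformed arrays out of the fit, and 5 with a common floor of 40, an alternative chosen after seeing the data. The median was 0.32 with the mean of probe sets, beside 0.062 over all genes. Leaving out single arrays gave 6 to 34 higher, 0 to 6 lower and medians of 0.32 to 0.49. Between pre-transformed and control thymocytes no alternative called a member higher, and Mrpl32 (1 member) was called lower without pre-transformed array 2. The median of −0.20 was −0.34 with median centring and −0.31 to −0.13 with single arrays left out. Among named members called in the reported fit or in the alternative, the direction reversed against pre-transformed thymocytes with the mean of probe sets in Mrpl21 (−0.65), Mrpl38 (−0.60), Mrpl51 (−0.061), Mrpl57 (−0.0077), Mrps11 (−1.45, past the threshold) and Mrps9 (−0.029), and without probe sets of shared sequence in Mrpl38 (−1.78, past the threshold) and Mrps6 (−0.17). Against controls it likewise reversed with the mean of probe sets in Mrpl38 (−0.53) and Mrpl51 (−0.41), and without shared probe sets in Mrpl38 (−1.45, past the threshold) and Mrps6 (−0.60, past the threshold). Members that passed the test in neither fit also changed sign with the mean of probe sets, among them Mrps25 (−0.41), Mrps21 (−0.52), Mrpl41 (−0.37), Mrps24 (−0.28) and Mrps23 (0.22) against pre-transformed thymocytes, and Mrps11 (−1.16), Mrps25 (−0.48), Mrps9 (−0.23), Mrps14 (−0.19), Mrps6 (−0.18), Mrpl57 (−0.16) and Mrps23 (0.13) against controls. Positive members then numbered 55 in place of 65, and against controls 53 in place of 61. Further probe sets of opposite sign stand behind the reversals, and the causes of the other shifts were not tested. The 2 control arrays limit both comparisons with controls, and labelling, sorting and age cannot be told apart from the tumour group.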
